A study of Mus musculus with 14 samples.

Results

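Expression of 10 genes that shorten or destabilize mRNA was described in mouse bone marrow erythroid progenitors with and without an erythropoietin (EPO) challenge. The genes were Noct, the BTG and TOB family members Btg1, Btg2, Tob1 and Tob2, the zinc finger genes Zfp36, Zfp36l1 and Zfp36l2, and the deadenylases Cnot7 and Cnot6l. They were taken by name, with every Affymetrix probe set that the platform annotation gives to one of them alone, and this gave 26 of the 45037 probe sets tested. Of these, 1 probe set each stood for Noct and Zfp36, 2 each for Btg2, Tob1 and Zfp36l1, 3 each for Btg1, Zfp36l2 and Cnot7, 4 for Cnot6l and 5 for Tob2. No filter on low values was applied, so all 26 were tested. The genes were chosen from earlier results on these same arrays, in which the rise of Noct at stage E1 was known. The values of the 10 genes are therefore given as a description, without p-values of their own.

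The arrays held 4 groups of progenitors, all from the marrow of female wild-type C57Bl/6 mice aged 8 to 12 weeks and expanded in SP34ex medium with EPO, stem cell factor, dexamethasone and estradiol. Stage E2 cells, called proerythroblasts in the study, were isolated on day 3.5 after depletion of lineage-positive and Kit-positive cells and selection for CD71. Stage E1 cells, called CFUe-like, were isolated after lineage depletion by selection for Kit and CD71, on day 3 in the deposited record and day 3.5 in the paper. All cells spent 5.5 h without hematopoietic cytokines and then 90 min with EPO at 4 U/mL or without it, which gave 3 EPO-challenged and 3 unchallenged arrays of stage E2 and 4 EPO-challenged and 4 unchallenged arrays of stage E1. The arrays are labelled biological replicates, with no source naming the animals or pools behind each. Stage, selection and culture time differ together between E2 and E1 and cannot be told apart. In such bulk RNA, fewer cells of a type and less RNA per cell also cannot be told apart.

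Most cytoplasmic mRNA decay begins with removal of the poly(A) tail, largely by the CCR4-NOT complex. Its catalytic subunits include CNOT7 (CAF1) and CNOT6L (CCR4b). Adaptors bring the complex to chosen mRNAs: ZFP36 proteins bind AU-rich elements, and BTG and TOB proteins bind the CAF1 subunit, TOB proteins also contacting the cytoplasmic poly(A)-binding protein. Many mRNAs of the immediate response to cytokines carry AU-rich elements, and in erythroid progenitors ZFP36L2 is known for its part in self-renewal and BTG1 as an inhibitor of proliferation.

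Values are log2 GC-RMA values from which 1 constant per probe set has been subtracted. A level therefore cannot be read from them and genes cannot be ranked by level, while a difference between arrays of 1 probe set can be read. Pearson's r between arrays of a group, over all probe sets, was 0.753 to 0.823 in EPO-challenged E2, 0.719 to 0.797 in unchallenged E2, 0.792 to 0.912 in EPO-challenged E1 and 0.768 to 0.899 in unchallenged E1. On centred values r depends on where the constants lie, so replicate agreement cannot be ranked between groups by it. The median SD of a probe set between replicates was 0.0343, 0.0317, 0.0729 and 0.0934 in the same groups. Of 33 marker probe sets of erythroid, myeloid, B cell, T cell, megakaryocyte and mast cells, limma called 1 with EPO at E2 and 0 at E1. The 1 called, as higher, was a Gata2 probe set of the mast cell list, whose other genes, Cpa3 and Mcpt8, were not called. At an unadjusted p under 0.05, 4 of the 33 were higher and 3 lower at E2, against 7.81% and 8.66% of all probe sets, and 1 was lower at E1, against 3.82%. The 3′ minus 5′ difference of the Gapdh control probe sets averaged 0.106 in EPO-challenged E2 and -0.132 in unchallenged E2, against -0.0135 in EPO-challenged E1 and -0.0154 in unchallenged E1. That of the Actb control probe sets averaged 0.0117 in EPO-challenged E2 and -0.136 in unchallenged E2, against 0.0188 in EPO-challenged E1 and 0.115 in unchallenged E1. Their part in the EPO results was not tested.

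At E2, Noct and Zfp36 were the members with the largest rise over unchallenged cells after EPO, and at E1 Noct was. Noct was several-fold higher at both stages, and Zfp36 was higher at E2 with overlapping groups at E1. Btg1 and Zfp36l1 were lower with EPO at both stages. Of the 26 probe sets, 3 passed the test in the higher direction at E2 (Noct, Zfp36 and 1 of Tob2), where 2.54% of all probe sets did, and 2 in the lower direction (1 each of Btg1 and Zfp36l1), against 2.08% of all. At E1, 1 passed as higher (Noct), against 0.804% of all, and 1 as lower (Btg1), against 0.360% of all. The test was limma's, two-sided, at a Benjamini-Hochberg adjusted p under 0.05 over all 45037 probe sets. These counts describe genes picked with the outcome in view, and nothing is read from them. The median log2 change of the 26 probe sets was -0.0046 at E2 and -0.0085 at E1, beside -0.0049 and -0.0047 over all probe sets.

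**Figure D1:**
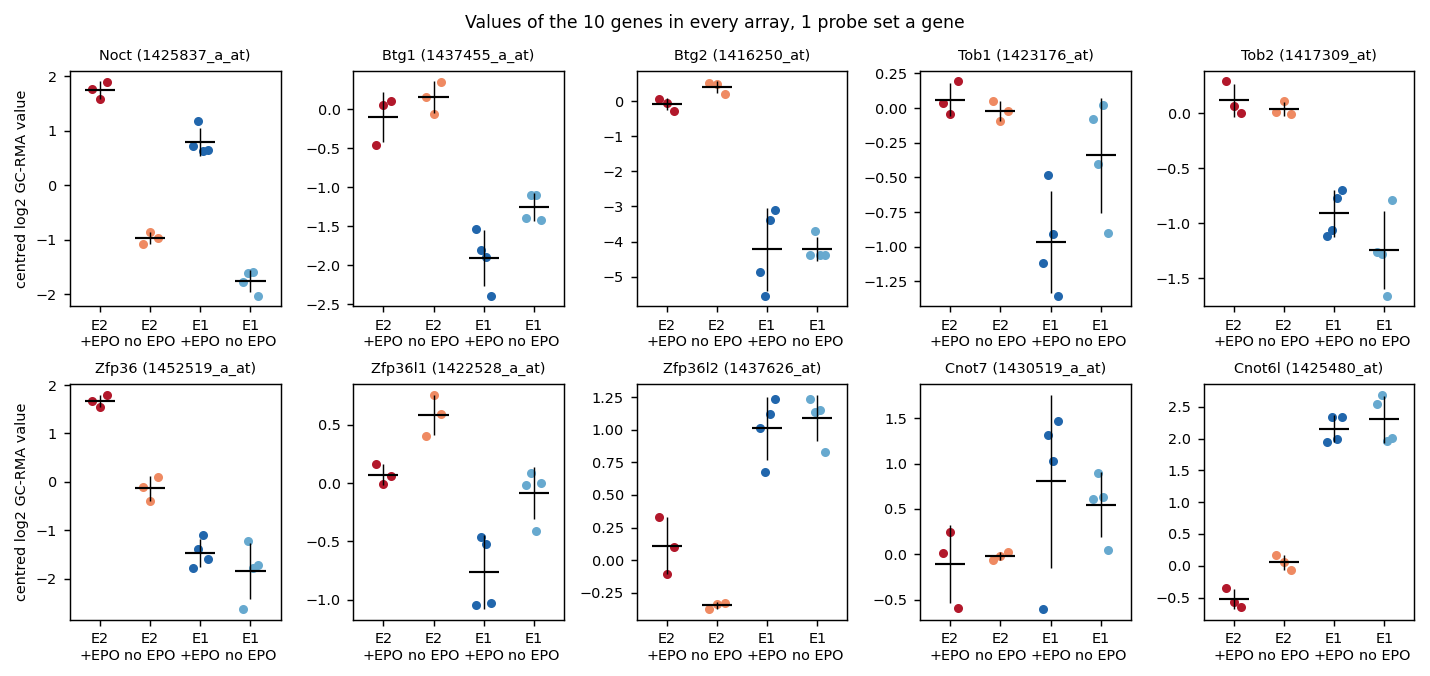
Centred log2 GC-RMA value (y axis) of each of the 10 genes in every array, in the probe set with the largest SD over the 14 arrays, for EPO-challenged and unchallenged cells of stages E2 and E1 (x axis). Points are arrays, horizontal bars means and vertical bars SD (n = 3 per group at E2 and 4 at E1). Noct lies at 1.58 to 1.90 in EPO-challenged E2 and at -1.08 to -0.85 in unchallenged E2.

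Noct encodes nocturnin, a nuclease-fold enzyme of the CCR4 family first described as a circadian deadenylase and since shown to act on NADP(H). Its probe set, 1425837_a_at, read 1.77, 1.58 and 1.90 in EPO-challenged E2 cells against -1.08, -0.85 and -0.97 in unchallenged E2 cells. It read 0.72, 1.19, 0.63 and 0.66 in EPO-challenged E1 cells against -1.77, -1.62, -1.59 and -2.03 in unchallenged E1 cells. Every EPO-challenged array lay above every unchallenged array, whichever the stage. The log2 change with EPO was 2.72 (SE 0.104) at E2, 6.59-fold, and 2.55 (SE 0.155) at E1, 5.85-fold. The changes of the stages differed by 0.17 (SE 0.21), E2 minus E1. Noct also stood higher in E2 than in E1, by 0.95 under EPO (1.94-fold) and by 0.78 without it (1.72-fold), with no overlap between the stages' arrays in either case. The order of the 4 groups was thus EPO-challenged E2, EPO-challenged E1, unchallenged E2 and unchallenged E1, and no neighbours in that order overlapped. The second probe set annotated to Noct also carries Sgip1 and Cog6 and is left out of the 26. It did not show the rise of 1425837_a_at, with log2 changes with EPO of -0.03 (SE 0.0353) at E2 and -0.23 (SE 0.109) at E1, both with overlap.

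The transcripts closest to Noct over the 14 arrays were Socs2 (r = 0.977), Dcbld2 (0.975), Fbxw7 (0.970), Tnfrsf13c (0.968) and Map2k3os (0.964). Socs2 is a cytokine-induced suppressor of signaling, and Tnfrsf13c is the receptor for BAFF. These are Pearson correlations given as a description. The arrays fall in 4 groups that share stage and treatment, so they are not independent points.

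The promoter of Noct is shown because this gene had the largest response of the 10, together with those of Zfp36, Btg1 and Btg2, which each held a match to 1 motif. The windows run from 250 bases before to 50 bases after the annotated start in RefSeq (GRCm38.p6), and 8 of the 10 genes had 10 windows in that table. Motifs were searched on both strands, and none overlapped another in these windows. The STAT5 motif was taken as TTCNNNGAA and occurs in 8.3% of 32851 mouse promoters. The forkhead motif was taken as GTAAACA and occurs in 3.65% of them. The GATA motif was taken as AGATAA and occurs in 11.2%, in none of the 10 windows. The cyclic AMP response element was taken as TGACGTCA and occurs in 1.79%. Capitals mark the matches and no other feature, and a match is a description of letters. Noct, on the plus strand at chr3:51224197-51224496, held none of the 4, and sites outside the window were not searched. The paper, where Noct is named Ccrn4l, reports it as a target of the EPO receptor and Stat5. That rests on RT-PCR in progenitors whose receptors keep or lack a Stat5 docking site, after an in silico prediction of Stat5 targets. The paper also reports STAT sites among the top binding sites in the cluster of induced genes that holds Ccrn4l, searching full gene loci.
Noct: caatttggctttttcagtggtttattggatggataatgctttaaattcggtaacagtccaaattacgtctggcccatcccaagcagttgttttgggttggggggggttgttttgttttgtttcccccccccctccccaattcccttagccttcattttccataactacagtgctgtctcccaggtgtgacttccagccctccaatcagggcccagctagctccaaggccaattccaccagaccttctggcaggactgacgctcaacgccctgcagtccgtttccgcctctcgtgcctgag
Zfp36 (minus strand, chr7:28379179-28379478) held 1 match to the STAT5 motif, starting 17 bases before the annotated start.
Zfp36: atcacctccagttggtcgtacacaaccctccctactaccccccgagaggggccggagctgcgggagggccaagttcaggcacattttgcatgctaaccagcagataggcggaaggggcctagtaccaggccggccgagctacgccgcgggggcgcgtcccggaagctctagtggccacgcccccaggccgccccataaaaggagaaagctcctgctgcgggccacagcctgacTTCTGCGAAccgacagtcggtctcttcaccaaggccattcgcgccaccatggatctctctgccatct
Btg1 (plus strand, chr10:96616751-96617050) held 1 forkhead match on the opposite strand, starting 204 bases before the annotated start.
Btg1: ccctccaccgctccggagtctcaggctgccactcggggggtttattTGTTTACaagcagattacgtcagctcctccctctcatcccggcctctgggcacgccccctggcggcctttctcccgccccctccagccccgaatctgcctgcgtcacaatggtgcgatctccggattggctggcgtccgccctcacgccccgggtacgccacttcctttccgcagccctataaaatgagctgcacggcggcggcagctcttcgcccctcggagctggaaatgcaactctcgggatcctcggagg
Btg2 (minus strand, chr1:134079106-134079405) held the cyclic AMP response element, starting 166 bases before the annotated start.
Btg2: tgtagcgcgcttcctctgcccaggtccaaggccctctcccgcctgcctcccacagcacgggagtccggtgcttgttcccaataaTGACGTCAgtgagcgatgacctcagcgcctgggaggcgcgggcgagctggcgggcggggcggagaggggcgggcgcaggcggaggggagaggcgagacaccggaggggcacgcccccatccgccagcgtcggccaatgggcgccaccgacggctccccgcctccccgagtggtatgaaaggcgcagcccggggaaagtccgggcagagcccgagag

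Among the AU-rich element binding proteins, Zfp36 was higher and Zfp36l1 lower with EPO at E2, while at E1 the groups of Zfp36 overlapped. Zfp36 encodes tristetraprolin, which binds AU-rich elements and recruits CCR4-NOT. Its probe set, 1452519_a_at, read 1.68, 1.55 and 1.80 in EPO-challenged E2 cells against -0.10, -0.40 and 0.10 in unchallenged E2 cells, without overlap. In E1 it read -1.78, -1.40, -1.11 and -1.60 with EPO against -2.63, -1.23, -1.77 and -1.71 without, and the groups overlapped. The log2 change was 1.81 (SE 0.15) at E2, 3.51-fold, and 0.36 (SE 0.305) at E1. The difference between these changes was 1.45 (SE 0.392), and it did not pass the test over all probe sets, in which 0.180% passed as higher and 0.235% as lower. No member passed that interaction test in either direction. At an unadjusted p under 0.05, 4 of the 26 were higher, against 3.24% of all probe sets, and 1 lower, against 3.95%. With quantile normalization 4 passed as higher and 1 as lower, on the changed scale described in the closing section. With the other settings given there up to 1 passed as higher.

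Zfp36 stood higher in E2 than in E1, by 3.15 under EPO (8.87-fold) and by 1.70 without it (3.25-fold), with no overlap. The order was EPO-challenged E2, unchallenged E2, then the E1 groups, which overlapped each other. The match to the STAT5 motif in its promoter is the one printed above. The transcripts closest to Zfp36 over the 14 arrays were Tmbim1 (r = 0.976), Hmgcs1 (0.970), Crk (0.967), Gmeb2 (0.964) and Orc1 (0.963), Hmgcs1 being an enzyme of cholesterol synthesis.

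Zfp36l1, a second AU-rich element binding protein of the family, was lower with EPO in both of its probe sets at both stages. Probe set 1450644_at read -0.09, -0.05 and 0.05 in EPO-challenged E2 cells against 0.60, 0.44 and 0.62 in unchallenged E2 cells. It read -0.27, -0.23, -0.27 and -0.69 in EPO-challenged E1 cells against 0.60, -0.13, 0.49 and 0.33 in unchallenged E1 cells. Neither stage's groups overlapped. The log2 changes were -0.58 (SE 0.0654) at E2 and -0.69 (SE 0.182) at E1. In probe set 1422528_a_at they were -0.51 (SE 0.103) and -0.68 (SE 0.182), again with no overlap. Only the first of these 4 differences passed the test, and it was lost in 4 of the 6 fits that left out 1 E2 array, those without unchallenged replicates 1 and 3 and without EPO-challenged replicates 1 and 2.

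Zfp36l2 showed a stage difference in 1 of its 3 probe sets. In 1437626_at it read 0.33, -0.10 and 0.10 in EPO-challenged E2 cells, -0.37, -0.34 and -0.33 in unchallenged E2 cells, 1.02, 0.67, 1.12 and 1.23 in EPO-challenged E1 cells, and 1.24, 1.14, 1.15 and 0.83 in unchallenged E1 cells. Both E2 groups lay below every E1 array, with stage differences of -0.90 under EPO (1.87-fold lower) and -1.43 without it (2.70-fold lower). With EPO the E2 groups did not overlap, at a log2 change of 0.46 (SE 0.116), and the E1 groups overlapped, at -0.08 (SE 0.141). Its other probe sets, 1439054_at and 1451034_at, ranged over only 0.0618 and 0.20 log2 units across the 14 arrays.

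**Figure D2:**
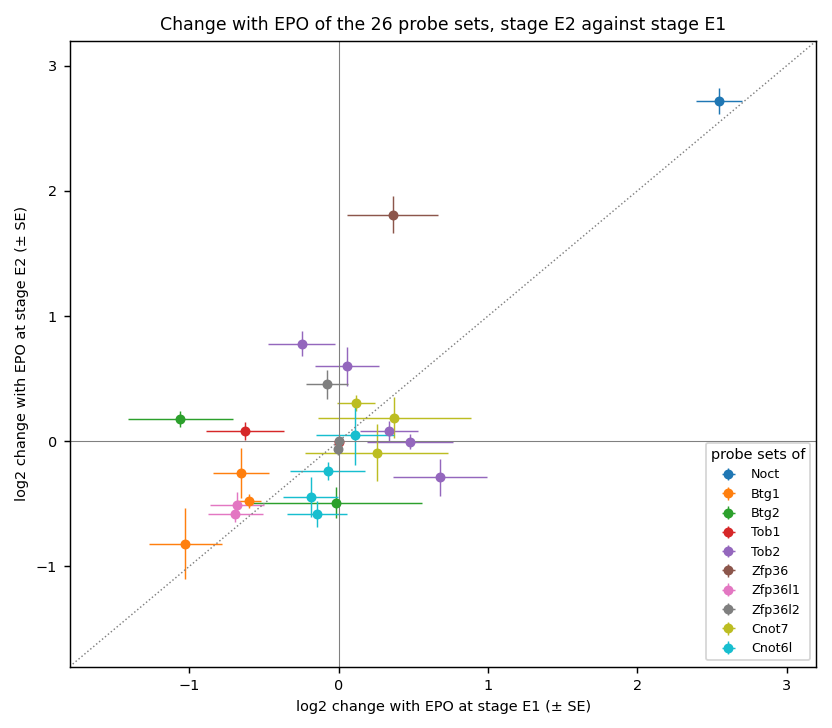
Log2 change with EPO at stage E2 (y axis, 3 against 3 arrays) against that at stage E1 (x axis, 4 against 4 arrays) for the 26 probe sets of the 10 genes. Bars are SE and the dotted line marks equal change. Noct lies near that line at 2.72 and 2.55, and Zfp36 lies above it at 1.81 and 0.36.

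The BTG genes encode small antiproliferative proteins that bind the CAF1 deadenylase. Btg1 was lower with EPO in all 3 of its probe sets at both stages. Probe set 1426083_a_at read -0.01, 0.01 and -0.05 in EPO-challenged E2 cells against 0.40, 0.41 and 0.58 in unchallenged E2 cells. It read -1.59, -1.30, -1.46 and -1.38 in EPO-challenged E1 cells against -0.69, -0.98, -0.85 and -0.80 in unchallenged E1 cells. The groups did not overlap at either stage, and the log2 changes were -0.48 (SE 0.0542, 1.39-fold lower) at E2 and -0.60 (SE 0.0816, 1.52-fold lower) at E1. In 1437455_a_at the changes were -0.25 (SE 0.199) and -0.65 (SE 0.188), and in 1442018_at they were -0.82 (SE 0.285) and -1.03 (SE 0.243), with the E2 groups overlapping in the first and the E1 groups in the second.

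The call of Btg1 at E1 did not hold with the replicate number as a block, where no member was called as lower, nor in 5 of the 8 fits without 1 array, those without unchallenged replicates 1, 3 and 4 and without EPO-challenged replicates 3 and 4. At E2 it was lost without unchallenged replicate 2 and without each EPO-challenged replicate. Probe sets 1426083_a_at and 1437455_a_at stood higher in E2 than in E1, by 1.41 and 1.80 under EPO and by 1.29 and 1.40 without it. Probe set 1442018_at overlapped between the stages, at 0.05 and -0.16. Over the 14 arrays the closest to 1437455_a_at were Nek2 (r = 0.976), Tspan33 (0.973), Ube2h (0.970), Ninl (0.969) and Dnase1l1 (0.968), Nek2 being a kinase of the centrosome cycle.

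Btg2, a p53-responsive member of the same family, had the largest stage difference of the 10 genes. Probe set 1416250_at read 0.05, -0.05 and -0.28 in EPO-challenged E2 cells, 0.51, 0.48 and 0.21 in unchallenged E2 cells, -4.87, -5.54, -3.38 and -3.10 in EPO-challenged E1 cells, and -4.38, -3.71, -4.37 and -4.37 in unchallenged E1 cells. Every E2 array lay above every E1 array. In this probe set the stages differed by 4.13 under EPO (17.5-fold) and by 4.61 without it (24.4-fold), and in 1448272_at by 4.26 (19.1-fold) and 3.02 (8.10-fold).

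Its response to EPO was less settled. In 1448272_at the E2 arrays read 0.25, 0.04 and 0.13 with EPO against -0.12, 0.02 and -0.02 without, and the E1 arrays read -3.94, -3.65, -3.79 and -5.07 with EPO against -2.72, -2.80, -3.15 and -3.55 without. The groups did not overlap at either stage and moved in opposite directions, with log2 changes of 0.18 (SE 0.0669) at E2 and -1.06 (SE 0.353) at E1. In 1416250_at the changes were -0.49 (SE 0.124), without overlap, and -0.01 (SE 0.571), with overlap. The 2 probe sets thus disagreed in sign at E2, although they correlated at 0.90 over the 14 arrays. The closest to 1416250_at were Birc5 (r = 0.995), Bsdc1 (0.994), Stom (0.993), Kcnn4 (0.993) and Gtpbp2 (0.990). Birc5 encodes survivin and Stom the red cell membrane protein stomatin.

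Tob1 and Tob2 differ from the BTG proteins by a longer carboxy-terminal part that contacts the cytoplasmic poly(A)-binding protein. In 1423176_at Tob1 read 0.03, -0.05 and 0.19 in EPO-challenged E2 cells against 0.05, -0.09 and -0.02 in unchallenged E2 cells. It read -1.12, -0.48, -0.91 and -1.35 in EPO-challenged E1 cells against -0.08, -0.41, 0.02 and -0.90 in unchallenged E1 cells. Groups overlapped at both stages, with log2 changes of 0.08 (SE 0.074) and -0.62 (SE 0.261). The E2 arrays stood above all E1 arrays under EPO, by 1.03, and overlapped them without EPO, at 0.32. Its other probe set, 1440844_at, ranged over only 0.0182 log2 units. The closest to 1423176_at were Psmc6 (r = 0.936), Chfr (0.930), Stxbp4 (0.928), Chmp5 (0.927) and Zfp617 (0.926).

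The 5 probe sets of Tob2 did not give 1 answer. In 1448667_x_at it read 0.50, 0.64 and 0.84 in EPO-challenged E2 cells against -0.07, -0.20 and -0.10 in unchallenged E2 cells, a change of 0.78 (SE 0.097, 1.72-fold) without overlap. In E1 the same probe set read -0.87, 0.07, -0.22 and -0.86 with EPO against -0.23, -0.33, -0.24 and -0.10 without, a change of -0.25 (SE 0.226) with overlap. The E2 call was lost in 4 of the 6 fits without 1 array, those without each unchallenged replicate and without EPO-challenged replicate 2. Probe set 1448666_s_at changed by 0.60 (SE 0.158) at E2 without overlap, and the others by -0.29 to 0.08 with overlap. At E1 the 4 probe sets other than 1448667_x_at had positive changes, all with overlap, of 0.34 in 1417309_at (SE 0.194), 0.68 in 1417310_at (SE 0.314), 0.48 in 1431776_at (SE 0.289) and 0.06 in 1448666_s_at (SE 0.212). The suffixes _x_at and _s_at mark probe sets whose probes can also match other transcripts. Correlations among the 5 ran between 0.0854 and 0.883.

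Of the deadenylases, limma called neither Cnot7 nor Cnot6l with EPO at E2 or E1 with the settings used for these counts. At E2 Cnot6l was called as lower in 1425480_at with the replicate block and with quantile normalization, and in 1451723_at without EPO-challenged replicate 2. Cnot6l, the CCR4-type catalytic subunit, was lower in E2 than in E1 in all 4 of its probe sets and both conditions. Probe set 1425480_at read -0.35, -0.57 and -0.65 in EPO-challenged E2 cells, 0.17, 0.06 and -0.06 in unchallenged E2 cells, 1.95, 2.34, 2.0 and 2.34 in EPO-challenged E1 cells, and 2.55, 2.69, 1.97 and 2.01 in unchallenged E1 cells. All E2 arrays lay below all E1 arrays, with stage differences of -2.68 under EPO (6.42-fold lower) and -2.25 without it (4.74-fold lower). In the other 3 probe sets the stage difference was between -2.32 and -1.18 under EPO and between -2.27 and -0.94 without. With EPO at E2, 3 of the 4 lay lower without overlap, at log2 changes of -0.58 (SE 0.103), -0.24 (SE 0.0717) and -0.44 (SE 0.16), and none passed the test. At E1 the changes of the 4 lay between -0.19 and 0.11, all with overlap. The 4 correlated with each other at 0.864 to 0.960.

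Cnot7, the CAF1-type catalytic subunit, was steadiest in 1423641_s_at, with 0.02, 0.12 and 0.16 in EPO-challenged E2 cells against -0.11, -0.21 and -0.30 in unchallenged E2 cells. It read 0.53, 0.40, 0.48 and 0.31 in EPO-challenged E1 cells against 0.60, -0.02, 0.33 and 0.34 in unchallenged E1 cells. The change with EPO was 0.31 (SE 0.0627) at E2, without overlap, and 0.12 (SE 0.128) at E1, with overlap. The stage difference, E2 minus E1, was -0.33 under EPO and -0.52 without it, and only the second passed the test. The other probe sets did not point one way. In 1430519_a_at the stage difference was -0.91 under EPO, with overlap, and -0.57 without it, every E2 array lower, and in 1460665_a_at it was 0.34 under EPO, with overlap, and 0.52 without it, every E2 array higher. None of these 4 differences passed the test. The probe sets 1430519_a_at and 1460665_a_at overlapped between EPO-challenged and unchallenged arrays at both stages, and correlations among the 3 ran between -0.18 and 0.402.

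**Figure D3:**
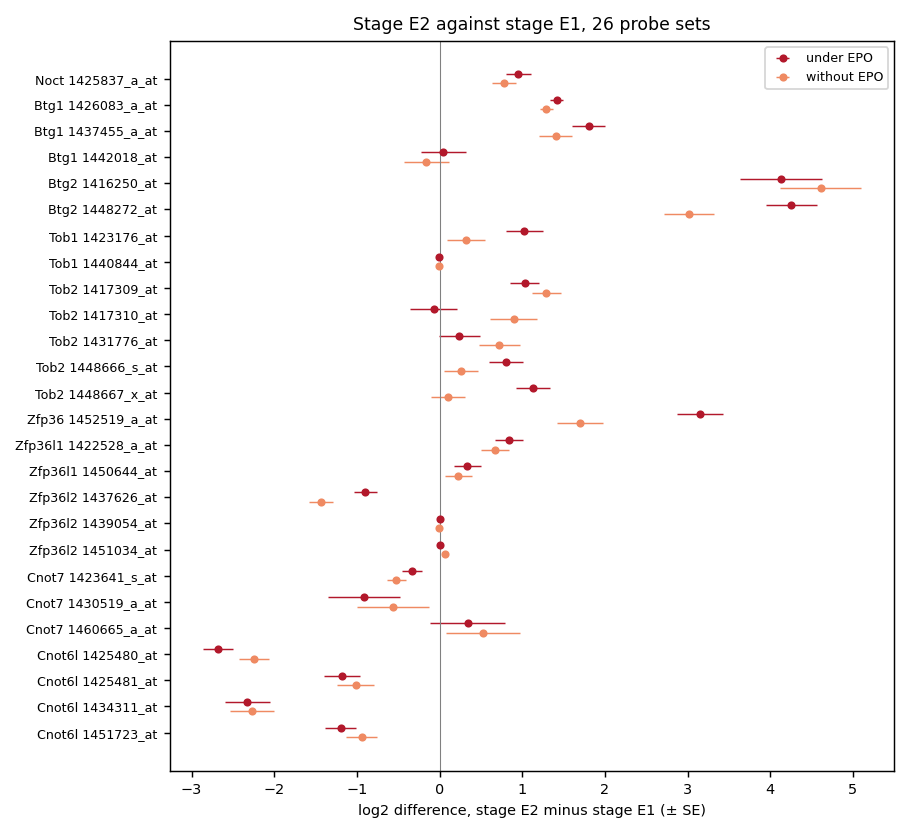
Log2 difference between stage E2 and stage E1 (x axis, E2 minus E1) of the 26 probe sets (y axis), under EPO and without EPO. Points are fitted differences and bars SE from 1 fit of 14 arrays. Btg2 lies at 4.13 and 4.26 under EPO, and the 4 probe sets of Cnot6l lie below 0 in both conditions.

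Between the stages, 11 of the 26 probe sets (7 genes) passed the test as higher in E2 than in E1 under EPO, where 10.3% of all probe sets did, and 5 (2 genes, Cnot6l and Zfp36l2) passed as lower, against 12.0% of all. Without EPO, 9 (6 genes) passed as higher, against 10.1% of all, and 6 (3 genes, with 1 of the 3 probe sets of Cnot7 added) as lower, against 10.8%. The median difference of the 26 was 0.29 under EPO and 0.24 without, beside -0.027 in both over all probe sets. RNA of cell type markers differed between the stages at the same time. Without EPO, 5 of 8 myeloid marker probe sets were lower in E2 (median of the list -4.02), with Mpo at -9.47, Ctsg at -8.02 and Elane at -7.01. In the mast cell list of Cpa3, Mcpt8 and Gata2, 4 of 4 probe sets were lower (median -2.31). Kit itself, on which the cells were selected, stood at -2.69 and -3.98 in its probe sets, and 7 of 10 erythroid and 3 of 4 megakaryocyte probe sets were higher, with Alas2 at 4.22. Levels of these markers cannot be read from centred values. Their part in the stage differences of the 10 genes was not tested.

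Counted by separation of the arrays instead of the test, 7 of the 26 probe sets had every EPO-challenged array above every unchallenged one at E2, against 9.42% of all probe sets, and 8 had every one below, against 13.7%. At E1 there was 1 above, against 3.28% of all, and 5 below, against 2.30%. The 5 below at E1 belonged to Btg1, Btg2 and Zfp36l1.

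The rest of the mRNA decay machinery was followed in 8 lists of 124 genes, of which 115 had 282 probe sets. The lists were written with earlier results of these arrays known. At E2, 22 probe sets (18 genes) rose and 8 (7 genes) fell at an adjusted p under 0.05 from limma. At E1, 4 probe sets (4 genes) rose and 0 fell. With the replicate block, in which the E1 replicate numbers were taken as pairs from their correlations, 0 rose at E1. Of all probe sets, 2.54% passed as higher and 2.08% as lower at E2, and 0.804% and 0.360% at E1. At an unadjusted p under 0.05, 25 of the 282 were higher at E1, against 5.02% of all probe sets, and 9 lower, against 3.82%. The methods' t-test without adjustment gave 32 higher at E1, against 6.27% of all, and 14 lower, against 5.26%. The median log2 change of the 282 was -0.0093 at E2 and 0.0057 at E1.

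Among the other deadenylases and CCR4-NOT subunits, 2 of 15 genes rose and 1 fell at E2, and 2 rose at E1. Pan3, the regulatory subunit of the PAN2-PAN3 deadenylase, fell at E2 by 1.29 on the log2 scale (SE 0.16, limma adjusted p = 0.0232) in 1 of 4 probe sets. Pde12, a mitochondrial poly(A) nuclease, rose in 1454963_at by 0.66 at E2 (SE 0.0501, limma adjusted p = 0.0071), where the arrays read 0.87, 0.70 and 0.82 with EPO against 0.14, 0.09 and 0.17 without. At E1 it rose in the same probe set by 0.77 (SE 0.0871, limma adjusted p = 0.0135, and adjusted p = 0.0975 with the replicate block). Cnot4, the ubiquitin ligase of the complex, was called in different probe sets. At E2 it rose by 0.75 in 1437586_at (SE 0.024, limma adjusted p = 0.00128), and at E1 by 1.66 in 1450083_at (SE 0.223, limma adjusted p = 0.0245, and adjusted p = 0.108 with the replicate block). In 1450083_at the change at E2 was -0.57 (SE 0.325), and the changes of the stages differed by -2.22, E2 minus E1 (SE 0.393, limma adjusted p = 0.0406). This Cnot4 probe set was the 1 of the 282 that passed the interaction test. That call held in 4 of the 14 fits without 1 array, where the adjusted p ran between 0.0326 and 0.116 (limma), and it was lost with quantile normalization (limma adjusted p = 0.0843) and with arrays centred on their medians (limma adjusted p = 0.05003).

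In the exosome and 3′-to-5′ decay list, 3 of 18 genes rose and 1 fell at E2, and 1 rose at E1. Exosc1, an exosome cap subunit, rose at E2 by 1.87 in 1453359_at (SE 0.202, limma adjusted p = 0.0165) and by 0.95 in 1432052_at (SE 0.0838, limma adjusted p = 0.0104). At E1, where it was not called, 1453359_at read 1.06, 2.30, 1.87 and 1.36 with EPO against -0.13, 0.61, 0.05 and 0.43 without. These E1 groups did not overlap, and those of 1432052_at did. Dis3, the exosome's catalytic subunit, rose at E2 by 0.47 (SE 0.0493, limma adjusted p = 0.0152). Exosc4, an exosome ring subunit, rose at E1 by 0.77 in 1460679_at (SE 0.11, limma adjusted p = 0.0298, and adjusted p = 0.196 with the replicate block), where its E2 change was -0.07 (SE 0.0889).

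Decapping and 5′-to-3′ decay had 2 of 20 genes that rose and 2 that fell at E2. The 2 that rose were Patl1, a decapping scaffold, by 0.68 (SE 0.041, limma adjusted p = 0.00399), and Dcp1a, a decapping activator, by 0.57 (SE 0.0736, limma adjusted p = 0.0251). Of the poly(A)-binding list, 2 of 7 genes fell at E2 and none rose: Pabpn1, the nuclear poly(A)-binding protein, by 0.55 (SE 0.0676, limma adjusted p = 0.023) and Paip2, an inhibitor of the cytoplasmic one, by 0.24 (SE 0.0352, limma adjusted p = 0.0336). In the list of RNA-binding adaptors and microRNA effectors, 4 of 23 rose and none fell at E2, led by Rc3h2, a roquin, at 0.79 (SE 0.105, limma adjusted p = 0.0277) and Cpeb4, a cytoplasmic polyadenylation element binding protein, at 0.73 (SE 0.103, limma adjusted p = 0.0313). Of the nonsense-mediated decay list 1 of 7 genes rose at E2, Smg5, by 0.40 (SE 0.0616, limma adjusted p = 0.0383). None of the genes in these 4 lists was called at E1. At E2 the calls came from 1 probe set each of Patl1 (1433697_at), Dcp1a (1433606_at), Rc3h2 (1426925_at) and Smg5 (1434546_at). Their other probe sets were not called. Pabpn1 was called in 1422849_a_at, given above, and in 1422848_a_at (-0.45). Cpeb4 was called in 1420618_at, given above, and in 1420617_at (0.69). The remaining probe sets of these 2 genes were not called.

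Among mRNAs known to be bound by ZFP36 proteins through AU-rich elements, 6 of 24 genes rose and 1 fell at E2, and 1 rose at E1. Myc read 2.61, 2.49 and 2.38 in EPO-challenged E2 cells against -0.86, -0.83 and -0.87 in unchallenged E2 cells, and it rose by 3.35 (SE 0.0619, 10.2-fold, limma adjusted p = 0.000368). At E1 it read 2.60, 1.97, 2.80 and 3.27 with EPO against -0.06, 0.17, 0.06 and 0.12 without, and it rose by 2.59 (SE 0.258, 6.02-fold, limma adjusted p = 0.00852, and adjusted p = 0.0899 with the replicate block). Fos rose at E2 by 2.37 (SE 0.14, 5.18-fold, limma adjusted p = 0.00382), and at E1 its change was 1.89 (SE 0.444, limma adjusted p = 0.152). Vegfa, named after its values were seen, rose at E2 by 1.70 in 1420909_at (SE 0.087, limma adjusted p = 0.00281). At E1 it was not called, and the same probe set read 2.69, 1.44, 2.20 and 1.04 with EPO against -0.57, 0.04, -0.01 and -0.03 without. These E1 groups did not overlap. The median of this list was -0.0058 at E2 and -0.0016 at E1, and 17 of the 24 genes were not called at E2. Whether the ZFP36 proteins bear on these mRNAs was not measured.

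Calls in these lists rested on few arrays. Of the E1 calls, only that of Myc held in all 8 fits without 1 array, and none held with the replicate block. The E1 call of Cnot4 was lost without replicate 2, 3 or 4 with EPO and without replicate 2, 3 or 4 with none. That of Pde12 was lost without replicate 3 with EPO and without replicate 1 or 3 with none. That of Exosc4 was lost without any 1 of the 4 replicates with EPO and without replicate 2 or 3 with none. At E2, Myc, Fos, Vegfa, Patl1, Jun (named here after its values were seen) and 1 probe set each of Cnot4, Pde12 and Exosc1 held in all 6 fits without 1 array, and each of the other 22 calls was lost in at least 1 of them.

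**Figure D4:**
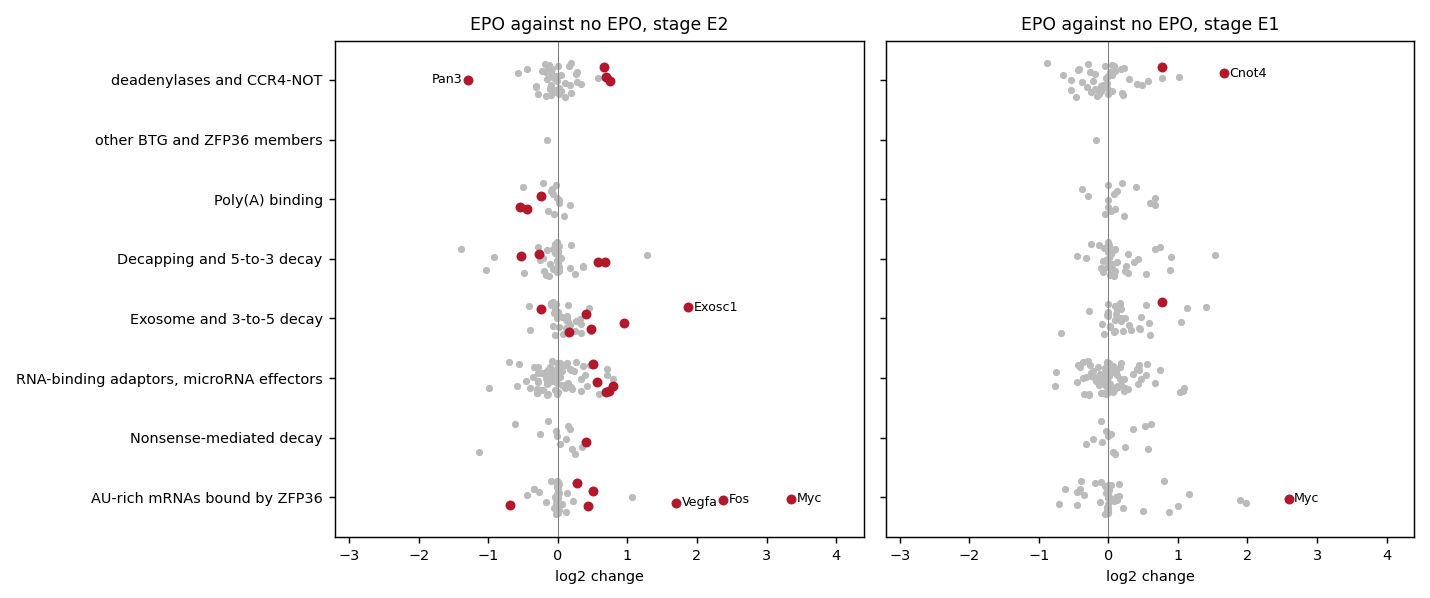
Log2 change with EPO (x axis) of the 282 probe sets in 8 lists of other mRNA decay genes (y axis), at stage E2 on the left and stage E1 on the right. Each point is a probe set, red where limma's adjusted p is under 0.05 and grey otherwise, with gene names at called changes over 1 log2 unit. Myc lies at 3.35 at E2 and 2.59 at E1.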

How the data were processed

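RNA from 14 samples was hybridized to Affymetrix mouse arrays. Scanning used GCOS, after which the authors ran GC-RMA inside GeneSpring GX. The deposited log2 values have had 1 constant per probe set taken away. The submitters' processing notes name GCRMA. No source states the log base. It was inferred to be 2, since base-2 folds match the study's printed folds. No source states what the constant is. The median of these 14 arrays was 0 in 439 probe sets (0.975%). In 77.9% of probe sets 2 arrays held values of equal size and opposite sign, as when a median over an even number of arrays is subtracted. Which arrays entered it stays unknown. GC-RMA draws dim probe sets together, so their differences can be understated. Precision is limited by the number of arrays.

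Each comparison was fitted on all 45037 probe sets, 64 controls left out, with limma (version 3.58.1, under R 4.3.3) and Benjamini-Hochberg adjustment. EPO was compared with no EPO within each stage, and 1 fit of 14 arrays gave the interaction and the stage comparisons. Gene names came from the platform annotation, in which 34945 probe sets name 1 gene, 932 several and 9160 none. The members and all lists were chosen with earlier results of these data known. Named are all members, up to 4 genes at E1 and 2 at E2 per list with the largest change past the test, and for Noct, Btg1, Btg2, Zfp36 and Tob1 the 5 genes with the highest r, with the gene represented by the probe set of largest SD. Marker lists covered erythroid, myeloid, B cell, T cell, megakaryocyte and mast cell genes.

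E1 arrays of the same replicate number deviated together (r of 0.195, 0.187, 0.173 and 0.152), so the numbers were taken to pair them. EPO-challenged replicate 3 correlated best with unchallenged replicate 4 (0.203). No source gives a batch. The alternatives tried were quantile normalization, arrays centred on their medians, the replicate block, 1 fit of 14 arrays, trend and robust options, array weights, the methods' one-tailed t-test with and without adjustment, a fold of 1.5, averaging each gene's probe sets, and each array left out in turn. The calculations were tested on simulated data. Figures were drawn with matplotlib 3.10.9 (Python 3.11.15).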

Additional observations from a re-analysis of the deposited data

Results flagged for a closer look

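The 52 groups of 4 arrays that the 26 probe sets have, all of stage E1, were searched for an array that stood apart (Dixon's criterion, 1 in 20 groups by chance), and 5 were found. The E2 groups of 3 arrays were not searched. Noct read 1.19 in EPO-challenged replicate 2, above 0.63 to 0.72 in the others. Btg2 read -3.71 in unchallenged replicate 2 (1416250_at), above -4.38 to -4.37 in the others. Zfp36l1 read -0.69 in EPO-challenged replicate 4 (1450644_at), below -0.27 to -0.23. Cnot7 read -1.46 in EPO-challenged replicate 1 (1460665_a_at), below 0.39 to 0.76. Zfp36l2 read 0.0077 in unchallenged replicate 1 of the nearly flat probe set 1439054_at.

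Btg2 (1448272_at) moved in opposite directions with EPO at the 2 stages, every EPO-challenged array higher than every unchallenged one at E2 and lower at E1. The changes were 0.18 at E2 and -1.06 at E1, and neither was called by limma. They differed by 1.24, E2 minus E1, and this difference did not pass the limma test over all probe sets. The other Btg2 probe set, 1416250_at, went the other way at E2, with a change of -0.49 without overlap, and stood at -0.01 with overlap at E1.

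A probe set outside the 26, 1449007_at, is annotated to both Gm7334 and Btg3, a BTG family member, so its signal alone cannot be given to either. It was higher with EPO by 0.63 at E2 (SE 0.0626, limma adjusted p = 0.0136) and by 1.11 at E1 (SE 0.118, limma adjusted p = 0.0115), without overlap at either stage. For stage E1 cells the paper reports Btg3 as induced by EPO, by array and by RT-PCR.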

How the results depend on the processing

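The calls of Noct at both stages and of Zfp36 at E2 held in every fit run for them: the replicate block, 1 fit of 14 arrays, array weights, quantile normalization, arrays centred on their medians, trend and robust options, and each array left out. The SD over the probe sets of an array ran from 0.259 to 0.295 at E2 and from 0.633 to 0.736 at E1. Since the values are centred, this SD depends on where the subtracted constants lie. Quantile normalization over the 14 arrays gives them all 1 distribution, which widens the spread of E2 arrays and narrows that of E1 arrays. Changes after it are therefore not on the scale of the main fit. It put Noct at 4.99 at E2 and 1.79 at E1, and at E2 Zfp36 at 2.90, Zfp36l2 at 1.04, Cnot6l at -1.28, Zfp36l1 at -0.83, Btg2 at -0.83 and Btg1 at -0.55. Means over a gene's probe sets gave -0.16 for Btg2, 0.23 for Tob2, 0.13 for Zfp36l2 and -0.30 for Cnot6l at E2. No call of a member turned its sign.

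Counts of member probe sets at E1, 1 higher and 1 lower, became 0 lower with quantile normalization and with the replicate block, 3 lower with 1 fit of 14 arrays, and 2 higher and 7 lower with the methods' t-test (unadjusted, one-tailed in the direction observed). Of all probe sets, this t-test passed 6.27% as higher and 5.26% as lower at E1. Leaving out 1 array gave 1 higher and 0 to 1 lower. At E2, 3 higher and 2 lower became 0 lower with a fold of 1.5 added, 1 lower with 1 fit of 14 arrays, and 7 higher and 8 lower with the unadjusted t-test. That t-test passed 9.10% of all probe sets as higher and 12.5% as lower at E2. Leaving out 1 array gave 2 to 3 higher and 0 to 1 lower. With quantile normalization, which changes the scale of E2 and E1 differently, the interaction gave 4 higher and 1 lower. It gave 1 higher with array weights and 0 to 1 higher without 1 array (1 without unchallenged replicate 1 or EPO-challenged replicate 2 of E1). The member counts of the stage comparisons stayed within 1.5 times their values in the alternatives run.

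For the wider decay lists at E1, 4 higher and 0 lower became 17 and 4 with array weights, 0 higher with the replicate block, 12 and 3 with 1 fit of 14 arrays, and 32 and 14 with the unadjusted t-test. The shares of all probe sets in that t-test were 6.27% and 5.26%. Leaving out 1 array gave 1 to 4 higher. At E2, 22 higher and 8 lower became 12 and 2 with the fold added, 6 and 2 with the replicate block, 8 and 5 with 1 fit of 14 arrays, 13 lower with array weights, and 56 and 52 with the unadjusted t-test. The shares of all probe sets in the E2 t-test were 9.10% and 12.5%. Leaving out 1 array gave 11 to 16 higher and 2 to 5 lower. After adjustment the t-test gave the same counts as limma in members and lists at both stages. The cause of these shifts was not tested.

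At E2 same-numbered arrays correlated at -0.0609, -0.0567 and -0.0155, so the numbers do not pair them there. The block at E2 gave 2 higher and 2 lower member probe sets, Noct and Zfp36, and Btg2 (1416250_at) and Cnot6l (1425480_at) in place of Btg1 and Zfp36l1. Probe sets with nearly constant values, such as 1440844_at of Tob1, limit what can be said of those transcripts.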
